A study of Mus musculus with 2 samples.

Results

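Collagen chains were read on 2 Affymetrix arrays of kidney RNA, 1 from cystic and 1 from control mice. The genes were taken by symbol: every probe set that named a single gene called Col, a number, the letter a and a number was included. This gave 82 of the 45037 probe sets, for 42 of the 18193 named genes, with up to 4 probe sets a gene and 15 genes read by 1 probe set. The control kidney is labelled +/+,inv-deltaC::GFP, with normal alleles of Invs, the gene of the ciliary protein inversin. The cystic kidney is labelled inv/inv, inv-deltaC::GFP, with inv on both alleles, and serves as a model of the human cystic disease nephronophthisis type 2. Mice of both groups carried inv-deltaC::GFP, a transgene for inversin that lacks the C-terminal part and is joined to green fluorescent protein, so the control is not free of it. The labels say that cysts form in the inv/inv mice with the transgene and that their body sides are arranged normally. The sources used here give neither the promoter of the transgene nor the number of animals or kidneys behind each array. Mice were 4 weeks old by the series design, and the labels of the cystic array give 28 days and a female sex.

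A collagen molecule is a triple helix of alpha chains, each the product of its own gene, and chains of a type assemble with particular partners. Fibrillar collagens form the cables of the interstitium, network collagens form the sheets of basement membranes and similar layers, and FACITs (fibril-associated collagens with interrupted triple helices) sit on the surface of fibrils. In the healthy kidney the tubular basement membrane holds type IV chains alpha1 and alpha2, and the mature glomerular basement membrane holds alpha3, alpha4 and alpha5. In fibrosis of the kidney, interstitial collagens of types I and III accumulate.

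The values are linear MAS5 signals. Median signals over the non-control probe sets were 55.4 for the control and 61.9 for the cystic kidney, and these medians served as a floor below which a signal was not read as a level. Log2 ratios are cystic minus control, and a gene was counted as higher or lower at a fixed 2-fold difference. Since each group has 1 array, there is no test and no p-value, and the number of arrays limits the precision. The only repeat measurement comes from different probe sets of a gene on the same RNA, whose log2 ratios had a pooled SD of 0.29 over 4694 genes. The brightest of 3 probe sets of the mutated gene Invs had a signal of 118 (control) and 15.9 (cystic, under the floor). It was thus at least 1.91-fold lower, which is a bound. The array labelled female did not read like it: Xist, the RNA of the inactive X chromosome, had signals of 387 (control) and 57.4 (cystic, under the floor), and the Y-linked gene Kdm5d had 151.5 and 194.2. The Y-linked genes Eif2s3y (131.7 and 141.5) and Uty (205.7 and 197.6) were also above the floor on both arrays. The control array thus read Xist and Y-linked genes, and the cystic array read Y-linked genes with Xist under the floor. The sex of the animals behind the arrays is not settled, and sex and disease cannot be told apart in any ratio below.

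Collagens were higher in the cystic kidney as a group. Of the 42 genes, 26 were measured, that is, above the floor on at least 1 array, and 25 of these were above it on both. Of the 26, 13 (50%) were at least 2-fold higher, against 7.06% of the 12015 measured genes of the array, and 0 were at least 2-fold lower, against 3.78%. At least 4-fold differences were seen for 4 collagens (Col5a2, Col12a1, Col1a1 and Col1a2), against 1.1% of all measured genes. The log2 ratio was above 0 for 22 of the 26, against 56% of all measured genes. The median log2 ratio of the measured collagens was 1.10, beside 0.09 over all measured genes. With each array divided by its median signal, the count of 13 collagens was the same and the share of all genes was 5.07%. By class, the median was 1.70 for 8 fibrillar collagens, 1.14 for 4 FACITs, 1.33 for 7 collagens of other kinds and 0.84 for 7 network collagens. The classes overlap widely, and the differences between them were not tested.

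**Figure D1:**
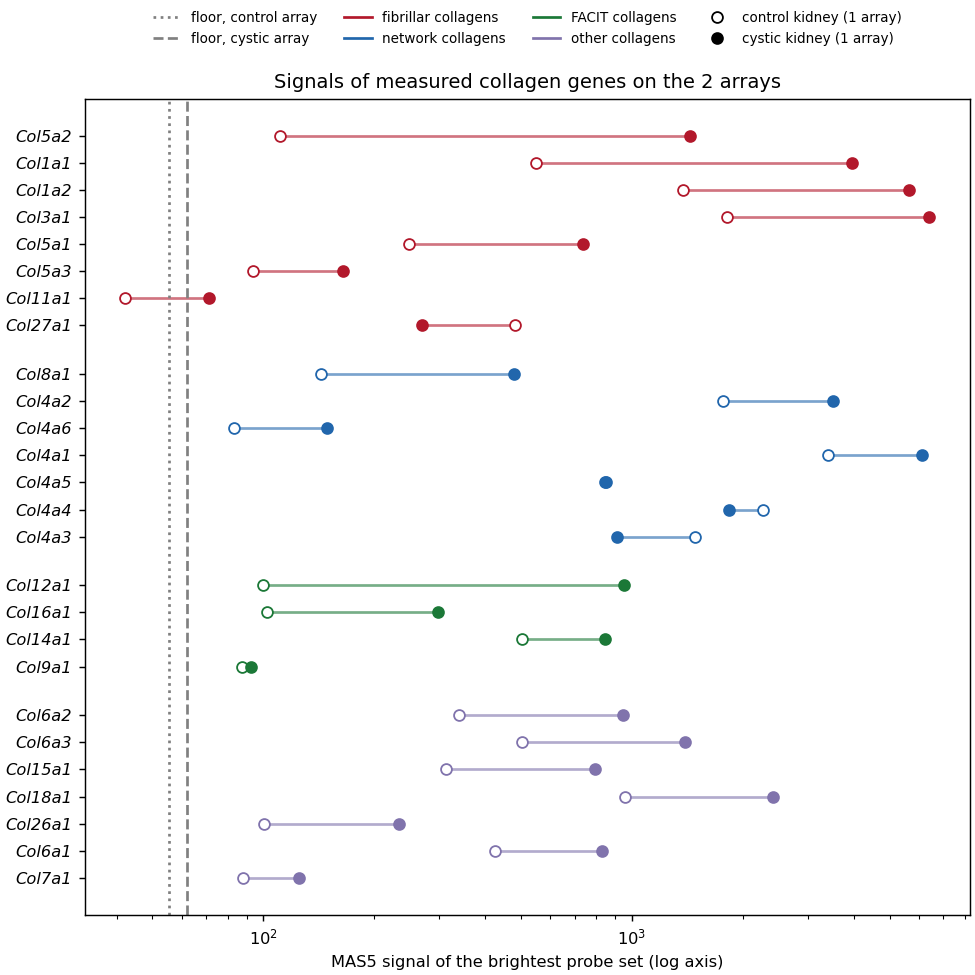
MAS5 signals (log axis) of the 26 measured collagen genes at their brightest probe set, with open points for the control array and filled points for the cystic array, joined by a line for each gene and coloured by class. The filled point lies to the right for 22 genes and to the left for Col27a1, Col4a3, Col4a4 and Col4a5 (the last changes sign with quantile normalization and loess, as does Col9a1 on the other side); the vertical lines are the floors of 55.4 (control) and 61.9 (cystic), and signals of different genes come from different probes and are not comparable as levels.

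The sequences just before the transcript start are shown for 4 of the genes that were at least 2-fold higher, to set out how unlike the starts of these genes are in letters. They are RefSeq sequences of the mouse assembly GRCm38.p6, the 250 bases before the start read along the gene's strand. Capitals mark CCAAT (or ATTGG on the other strand), the GC box GGGCGG (or CCGCCC) and TATAAA (or TTTATA).
Col1a2 (chr6:4505368-4505617, + strand): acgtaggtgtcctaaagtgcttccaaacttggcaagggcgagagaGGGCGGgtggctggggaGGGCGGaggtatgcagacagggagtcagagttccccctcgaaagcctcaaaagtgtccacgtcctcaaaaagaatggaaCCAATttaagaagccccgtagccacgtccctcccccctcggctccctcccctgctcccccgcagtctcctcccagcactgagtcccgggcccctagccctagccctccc
Col3a1 (chr1:45311288-45311537, + strand): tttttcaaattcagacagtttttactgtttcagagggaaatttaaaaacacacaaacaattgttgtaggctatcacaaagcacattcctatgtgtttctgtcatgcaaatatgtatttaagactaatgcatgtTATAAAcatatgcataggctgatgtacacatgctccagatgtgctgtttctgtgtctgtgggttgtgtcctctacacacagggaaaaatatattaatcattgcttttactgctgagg
Col8a1 (chr16:57754738-57754987, - strand): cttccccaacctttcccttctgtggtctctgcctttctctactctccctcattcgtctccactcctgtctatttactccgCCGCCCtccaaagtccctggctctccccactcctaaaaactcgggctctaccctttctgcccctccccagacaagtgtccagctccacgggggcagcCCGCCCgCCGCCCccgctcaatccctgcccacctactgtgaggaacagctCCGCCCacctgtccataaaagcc
Col18a1 (chr10:77166531-77166780, - strand): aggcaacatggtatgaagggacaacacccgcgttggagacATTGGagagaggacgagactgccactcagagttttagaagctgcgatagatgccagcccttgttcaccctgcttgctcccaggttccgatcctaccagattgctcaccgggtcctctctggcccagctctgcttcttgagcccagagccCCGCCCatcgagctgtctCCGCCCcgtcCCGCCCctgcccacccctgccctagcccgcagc
The Col1a2 stretch holds a CCAAT 109 bases before the start and GC boxes at 205 and 188 bases, and the Col3a1 stretch holds TATAAA at 117 bases and neither of the other motifs. Col8a1 has 4 GC boxes, the nearest 23 bases before the start, and Col18a1 has 3 GC boxes and an ATTGG.

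Start windows were found for 33 of the 42 collagen genes, 36 windows in all. A GC box lay in 21 of these (58.3%), against 32.7% of the 32851 windows of the whole table. A CCAAT lay in 13 (36.1%, against 33.8%) and TATAAA in 5 (13.9%, against 12.4%). Among collagens with a window, the GC box was present in 6 of the 9 genes that were at least 2-fold higher and in 7 of the 11 measured genes under 2-fold. The CCAAT was present in 3 of the 9 and 7 of the 11, and TATAAA in 1 of the 9 and 0 of the 11. A match is a run of letters and was not tested as a binding site.

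Among the fibrillar collagens, the median log2 ratio of 1.70 was the highest of the 4 classes under the floor used here. The fibrillar median was not the highest with no floor (0.72, against 0.94 for collagens of other kinds). Nor was it without probe sets named _a_at, _s_at or _x_at (1.94, against 2.32 for FACITs, then Col12a1 and Col14a1 alone). Of 11 genes on the array, 8 were measured and 5 were at least 2-fold higher. Col1a1, the chain that makes up most of type I collagen, went from a signal of 547.7 in the control to 3946 in the cystic kidney, a 7.20-fold difference (log2 ratio 2.85). Its second probe set went from 341.3 to 1015, a log2 ratio of 1.57. Both probe sets of Col1a1 were thus past 2-fold, but the gap between them exceeded 2 SD of the spread between probe sets.

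Col1a2, the partner chain of type I, went from 1374.7 to 5647.7, which is 4.11-fold (log2 ratio 2.04), and its second probe set from 598.7 to 3325.1 (2.47). Col3a1, whose chain forms type III homotrimers in distensible tissue, went from 1805.9 to 6409.8, which is 3.55-fold (1.83), and its second probe set from 163 to 813.5 (2.32). For Col1a2 and Col3a1 the brighter probe set, on which the gene value rests, gave the smaller ratio.

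Type V collagen lies inside type I fibrils and limits their width, and its chains differed among themselves. Col5a2 went from 111 to 1438, a 13.0-fold difference (3.70) and the highest of all collagens at the brightest probe set, 12th from the top of all 12015 measured genes. Its second probe set went from 68.4 to 495.7 (2.86). Col5a1, the more abundant chain of type V in most tissues, went from 247.9 to 735, which is 2.96-fold (1.57), with 1.29 and 1.86 at its other probe sets. Col5a3, a chain of narrower expression, went from 93.6 to 164.3, a log2 ratio of 0.81 that did not reach 2-fold.

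Col27a1, a fibrillar collagen of cartilage and other developing tissues, was the only measured fibrillar chain with a ratio below 0. It went from 480.9 to 269.1 (log2 ratio -0.84), and a second probe set went from 307.2 to 168.9 (-0.86). The probe sets gave nearly the same ratio, and neither reached 2-fold. Col11a1, a minor chain of cartilage fibrils, was under the floor in the control (42.2) and at 71.1 in the cystic kidney, so its difference of at least 1.28-fold is a bound. Col2a1, the main cartilage collagen, Col11a2 and Col24a1 stayed below both floors, with signals of 2.5 to 37.1.

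**Figure D2:**
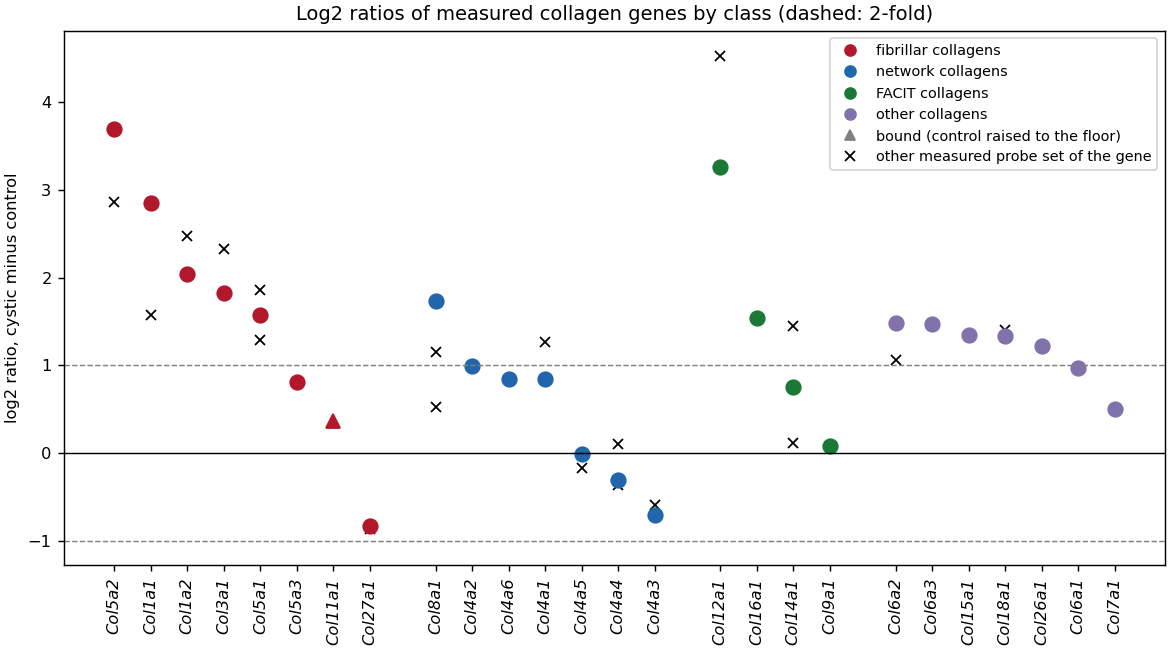
Log2 ratios (cystic minus control) of the 26 measured collagen genes, grouped by class, with coloured symbols for the brightest probe set and crosses for other measured probe sets of the same gene. Fibrillar chains run from -0.84 (Col27a1) to 3.70 (Col5a2), basement membrane chains from -0.70 (Col4a3) to 0.99 (Col4a2), and the crosses show how far probe sets of a gene lie apart, most of all for Col12a1, Col1a1, Col14a1 and Col8a1.

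The basement membrane collagens of type IV did not move together. All 6 genes were above the floor on both arrays, and 0 of the 6 was past 2-fold in either direction at its brightest probe set. The median was 0.41, made of 3 positive and 3 negative ratios. The chains of the ubiquitous network had ratios above 0: Col4a1 went from 3406.3 to 6102.8 (log2 ratio 0.84), and its second probe set from 1516.9 to 3654.4 (1.27), which is past 2-fold. Col4a2 went from 1761.1 to 3509.1, a ratio of 1.99-fold (0.99), just under the limit.

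The chains of the glomerular network had ratios below 0 at their brightest probe sets, with an exception under other scalings for Col4a5. Col4a3 went from 1479.1 to 909.3 (-0.70), with -0.59 at its second probe set. Col4a4 went from 2264.2 to 1829.7 (-0.31), with 0.10 and -0.37 at its other probe sets, so its probe sets differed in sign. Col4a5 went from 852.3 to 843.3 (-0.02, and 0.03 with loess), with -0.18 at its second. Col4a6, a chain of the Bowman's capsule and some tubular basement membranes, went from 83.1 to 148.9 (0.84). None of these 4 reached 2-fold.

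Type IV genes lie in the genome as pairs of neighbours that are read in opposite directions. In the RefSeq table, the transcript starts of Col4a1 and Col4a2 face away from each other, and their first 22 bases overlap. This stretch is printed to show how close the starts are, on the + strand, with a GC box in capitals.
Col4a1 and Col4a2 (chr8:11312805-11312826, GRCm38.p6): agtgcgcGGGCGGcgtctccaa
The log2 ratios of this pair were 0.84 and 0.99. The other type IV pairs had -0.31 and -0.70 (Col4a4 and Col4a3, whose gene models also overlap) and 0.84 and -0.02 (Col4a6 and Col4a5). Outside type IV, Col3a1 and Col5a2 are neighbours with 1.83 and 3.70, and Col6a2 and Col6a1 are neighbours with 1.48 and 0.97. Members of a pair therefore had like ratios in some cases and unlike ratios in others, among 7 neighbouring pairs of which 5 were measured.

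Type VIII and type X collagens form hexagonal lattices, and Col8a1 was the only chain of these that was measured. It went from 143.1 to 477.1, a 3.33-fold difference (1.74), and was the single network collagen past 2-fold. A second probe set of Col8a1 went from 146.4 to 326.2 (1.16), and another from 14.3, under the floor, to 79.5, a bound of 0.52. Its partner chain Col8a2 and the growth plate collagen Col10a1 stayed below both floors, with signals of 3 to 30.2.

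Of 9 FACIT genes, 4 were measured and 2 were at least 2-fold higher. Col12a1, whose chain bridges fibrils in dense connective tissue, went from 99.6 to 952, which is 9.56-fold (3.26). A second probe set of Col12a1 went from 50.7, under the floor, to 1280.4, which is at least 23.1-fold (4.53). The remaining Col12a1 probe sets stayed below both floors, so 2 of its 4 probe sets carry the result. Col16a1 went from 102.5 to 298.3, which is 2.91-fold (1.54), at its only probe set.

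Col14a1, a FACIT of mature fibrils, went from 503.7 to 846.1 (0.75), from 260.5 to 282.4 at a second probe set (0.12), and from 20.1, under the floor, to 151.1 at a further one (at least 1.45). Its probe sets thus lay on both sides of 2-fold. Col9a1, a chain of cartilage and eye, had 87.4 and 92.5 (0.08; below 0 under each other scaling tried). Col9a2, Col9a3, Col19a1, Col20a1 and Col22a1 stayed below both floors at all of their 14 probe sets, with signals of 0.3 to 48.9.

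Among collagens of other kinds, 7 of 13 genes were measured, 5 were at least 2-fold higher, and all 7 ratios lay between 0.50 and 1.48. Type VI collagen forms beaded filaments close to cells from chains alpha1, alpha2 and alpha3. Col6a1 went from 424.1 to 829.4 (0.97, just under 2-fold). Col6a2 went from 339 to 947.8, which is 2.80-fold (1.48), with 1.06 at its second probe set. Col6a3 went from 502.1 to 1388.9, which is 2.77-fold (1.47). The 3 chains lay close together, while Col6a4 and Col6a5 were under the floor on both arrays.

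The multiplexins Col15a1 and Col18a1 are basement membrane proteoglycans, and the latter is the source of the fragment endostatin. Col15a1 went from 312.8 to 794.4, which is 2.54-fold (1.34), and Col18a1 from 959.7 to 2420.7, which is 2.52-fold (1.33), with 1.40 at its second probe set. The multiplexins thus had nearly equal ratios. Col26a1, a secreted protein with short collagenous parts, went from 100.7 to 233.6, which is 2.32-fold (1.21). Col7a1, the chain of the anchoring fibrils of skin, had 88.3 and 125.2 (0.50). The transmembrane collagens Col13a1, Col17a1, Col23a1 and Col25a1 were under the floor on both arrays.

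Together, 16 collagen genes were not measured, with 29 probe sets and signals of at most 48.9 on the control and 46.5 on the cystic array. They include Col2a1 and Col10a1. Of the 26 measured genes, 15 had 2 or more measured probe sets, and their ratios had the same sign in 14 and lay on the same side of 2-fold in 12. Of the 9 genes that were at least 2-fold higher and had repeat probe sets, all measured probe sets were past 2-fold in 8, and the exception was Col8a1.

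Genes that make, assemble, bind and break down collagen were higher in part. Of 58 listed genes, 53 were named on the array and 40 were measured. Of these, 10 were at least 2-fold higher (25%, against 7.06% of all measured genes), with a median log2 ratio of 0.59. At least 2-fold lower was 1 of the 40, against 3.78% of all measured genes. Each step below holds few genes, and its counts stand beside these same shares of all measured genes. Genes listed under prolyl and lysyl hydroxylation, a step that prepares the chains for folding, had a median of 0.35, with 2 of 14 higher. The 2 were P3h3 (72.3 to 169.9, log2 ratio 1.23) and P3h4 (85.2 to 174.1, 1.03), followed by P3h1 with 0.70, while P3h2 had -0.60.

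Of 8 measured genes of folding and export, 0 were past 2-fold, with a median of 0.44. Fkbp14, a prolyl isomerase of the endoplasmic reticulum, had 0.96. Serpinh1, the collagen chaperone HSP47, went from 1192.5 to 2092.8 (0.81), and its second probe set had 1.28. The vesicle coat gene Sec24d had 0.75 and the ion channel Tmem38b -0.48 (second -0.07).

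Propeptide removal, which lets fibrils form, went both ways among 4 measured genes, with a median of 0.03. Bmp1, the procollagen C-proteinase, went from 82.8 to 346.3 (2.06), with 0.55 at its second probe set. Its enhancer Pcolce went from 1144.4 to 2307.1 (1.01, second 0.77). Mep1b, a brush border protease of the proximal tubule that can also cleave procollagen, went from 1701.3 to 448.8 (-1.92). The remaining measured gene, Mep1a, went from 6982.7 to 3619.5 (-0.95, second -1.04). Crosslinking enzymes had a median of 1.54 over 3 measured genes: Lox, a lysyl oxidase, went from 147.5 to 1061.7 (2.85, second 3.29), Loxl1 had 1.54 and Loxl3 0.85.

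Collagen receptors had a median of 0.87 over 5 measured genes and none below 0. The endocytic receptor Mrc2 had 1.52, the discoidin domain receptor Ddr2 1.46 and the integrin subunit Itgb1 0.87. In collagen breakdown, 2 of 6 measured genes were higher, with a median of 0.74. The membrane-bound protease Mmp14 went from 158.6 to 749.6 (2.24) and the gelatinase Mmp2 from 213 to 558.2 (1.39). The peptidase Prep had 0.74, with 0.01 at its second probe set, and Pepd, which splits the dipeptides left from collagen, had -0.90.

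**Figure D3:**
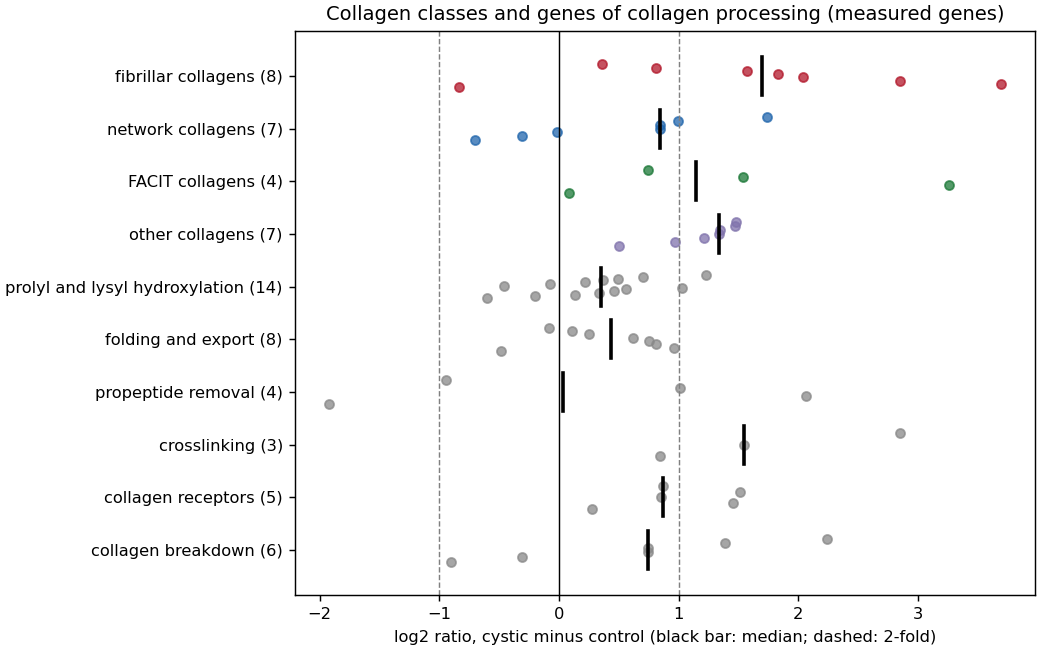
Log2 ratios (cystic minus control) of measured genes by collagen class (coloured) and by step of collagen processing (grey), 1 point a gene, black bars for medians and the number of genes in brackets. Crosslinking genes (median 1.54) lie near the fibrillar collagens (1.70), and hydroxylation (0.35) and folding and export (0.44) lie nearer to 0.

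Collagens are made by several cell types of the kidney, and in whole tissue more cells of a type and more RNA per cell cannot be told apart. The marker counts stand beside 7.06% of all measured genes at least 2-fold higher and 3.78% at least 2-fold lower. Markers of fibroblasts were higher as well: all 10 were at least 2-fold higher, with a median log2 ratio of 1.80. Their summed signal was 2582.8 on the control and 9571.4 on the cystic array. Thy1 and Mfap5 were under the floor in the control, so their ratios are bounds. Of the 26 measured collagens, 5 (Col5a2, Col12a1, Col1a1, Col1a2 and Col3a1) had a ratio above the fibroblast median. Col3a1 and Col1a2 exceeded it by 0.03 and 0.24, less than the SD of 0.29 between probe sets. The second probe set of Col1a1 (1.57) lay below it. Of 6 markers of smooth muscle and myofibroblasts 4 were measured and 2 were higher (Acta2 2.42 and Tagln 3.81), with sums of 1430.6 and 7206.2, while Myh11 and Cnn1, of mature smooth muscle, were under the floor on both arrays. Macrophage markers were higher in 7 of 8, with sums of 1978 and 9136.6. The part of these cells in the collagen ratios was not tested.

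Podocytes make the chains of Col4a3, Col4a4 and Col4a5 in the glomerular basement membrane. Their markers had a median of -0.60 over 5 measured genes, of which Nphs1, which encodes nephrin, was past 2-fold with -1.07, and sums of 1738.7 and 1205.6. Synpo, of the podocyte cytoskeleton, had 0.65 and Wt1 0.25, so the list was split, with 2 markers above 0 and 3 below. Podxl had -0.85, with -0.13 at its second probe set. These values stand beside -0.70, -0.31 and -0.02 for Col4a3, Col4a4 and Col4a5, and the part of podocytes in them was not tested. Endothelial markers had a median of 0.41, with 0 of 7 past 2-fold and sums of 2639.9 and 3256.5. Collecting duct markers had 0.29, with 0 of 5 past 2-fold and sums of 3165.5 and 3632.2. Proximal tubule markers, which define the most common tubule cells of the kidney, were all read on both arrays (sums of 30425.8 and 14437.3). They were at least 2-fold lower in 5 of 7, against 3.78% of all measured genes, with a median of -1.15.

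Markers of tissues next to the kidney, and of cartilage and bone, were read unevenly. Of 6 cartilage and bone markers, 5 were under the floor on both arrays, and Sp7, at 55.7 and 51.9, had no direction. Of 4 fat markers, Adipoq, Lep and Cidec were under both floors, and Retn was above both, at 75.5 and 120.7 (0.68). Of 5 skeletal muscle markers, 4 were under both floors, and Ckm went from 50.7 to 115.7 (at least 2.09-fold). The summed signals of fat markers were 113.4 and 176.2, of skeletal muscle 113.3 and 151.6, and of cartilage and bone 137 and 187. Summed signals of marker lists include signals under the floor where a list has them, and are not read as amounts of a tissue. All 5 urothelial markers were measured, 4 of them above the floor on both arrays, with sums of 372.9 and 566.9 and 0 past 2-fold, and of 3 mesothelial markers only Upk3b was measured (83.7 and 142.1, 0.76), with sums of 110.7 and 208.8.

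**Figure D4:**
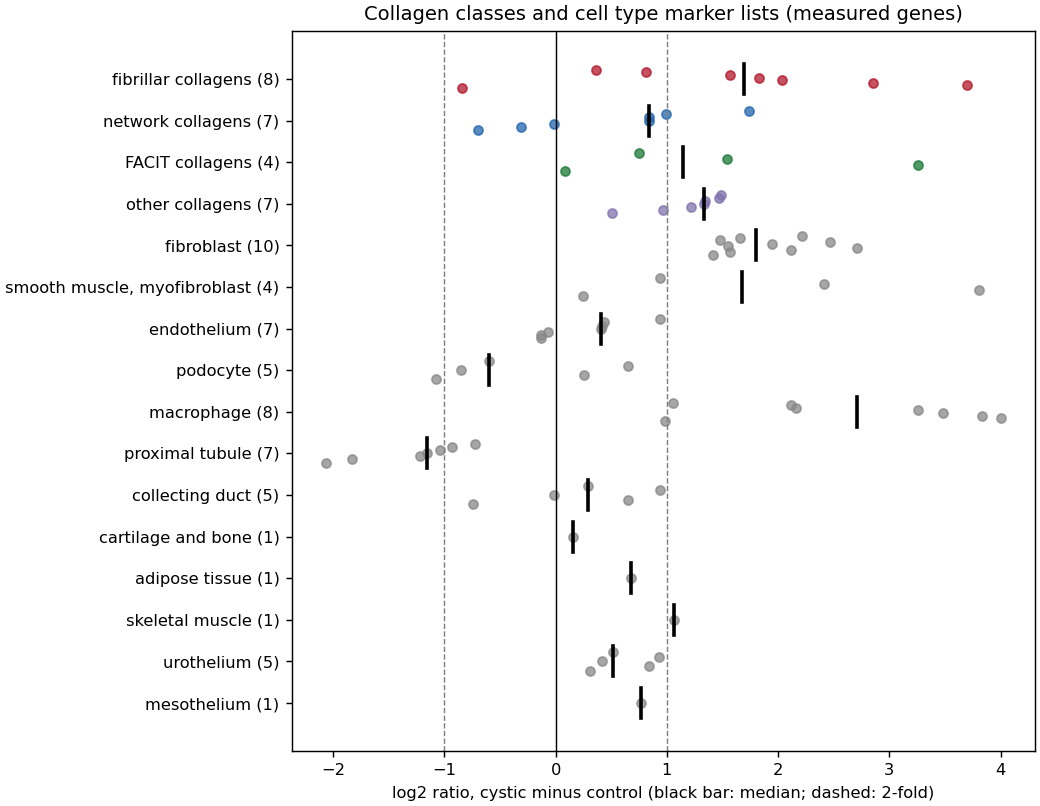
Log2 ratios (cystic minus control) of measured genes by collagen class (coloured) and by marker list of a cell type or tissue (grey), 1 point a gene, black bars for medians and the number of measured genes in brackets. Fibroblast markers lie between 1.42 and 2.71 (Mfap5, a bound). This overlaps in part with the fibrillar collagens past 2-fold, which lie between 1.57 (Col5a1) and 3.70 (Col5a2). Proximal tubule markers all lie below 0. Lists with 1 measured gene show that gene alone (the point of cartilage and bone is a bound with no direction).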

How the data were processed

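Total RNA of kidney was measured on 1 array per group, with groups taken from the sample titles. Each deposited value is an intensity on a linear scale, made by the authors with MAS5, per the submitters' processing notes; its version and scaling target and any detection calls are not given in the sources used here. Control probe sets (64 of 45101) were left out and the deposited scaling was kept, since the 2% trimmed means were 178 and 181. Gene names came from the platform annotation, and identifiers were looked up in a RefSeq table (GRCm38.p6), where all 82 collagen probe sets were found. Each gene was represented by its brightest probe set, by mean log2 signal after flooring. A signal under its array's median was raised to that median, which makes the ratio a bound, and a gene under it on both arrays was not measured. Other probe sets of a collagen gene are given where measured, and every measured collagen is named; from each processing step the 3 genes furthest in the direction of its median and 1 in the other are named. Mep1a, Ckm, Sp7, Retn, Upk3b, Wt1, Podxl, Eif2s3y, Uty and the genes under the floor were named after their values were seen. The members and gene lists were chosen with earlier results of these data known. Alternatives were other scalings, floors and probe set choices. The steps, run in Python 3.11.15 with pandas 2.3.3, were tested on simulated arrays.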

Additional observations from a re-analysis of the deposited data

How the results depend on the processing

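Under the 9 alternatives, between 10 and 15 collagens were at least 2-fold higher, and 0 were at least 2-fold lower under each. The count of 10 came without probe sets whose names end in _a_at, _s_at or _x_at, where 22 were measured. Col16a1, Col26a1, Col6a2 and Col9a1 then had no measured probe set. The median over collagens was 0.65 with no floor and a pseudocount of 16, where all 42 genes enter, and the class medians were then 0.72 (fibrillar), 0.054 (network), 0.26 (FACIT) and 0.94 (other). The FACIT median rests on 4 genes in the main setting. It was 0.55 with the floor at the 40th percentile and 1.54 at the 60th, where Col9a1 was not measured. With the second brightest probe set it was 0.83. Without probe sets named _a_at, _s_at or _x_at it was 2.32, the midpoint of Col12a1 (4.53, a bound) and Col14a1 (0.12). Col4a2 passed 2-fold with quantile normalization and loess, and Col4a1 with loess, the median over probe sets and the second brightest probe set. Col9a1 changed sign with all 3 other scalings, Col4a5 with quantile normalization and loess, and Col4a4 at its second brightest probe set. Of the processing genes, 3 were lower with each array divided by its median and 2 with the second brightest probe set, against 1. Dividing each array by its median shifted all genes, whose median became -0.07 instead of 0.09, and left 47.5% of the genes past 2-fold on the higher side instead of 65.1%. No paired analysis was possible because each group has 1 array. Signals near the floor limit what can be said of the 16 collagens not measured.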

Other observations

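Proteins with short collagen-like triple helices outside the collagen family were looked at in a list of 29 genes drawn up after the collagen values were seen. Of these, 27 were named on the array and 16 measured. Above the floor on both arrays were 8 of the 16, against 10668 of all 12015 measured genes. In the cystic kidney 8 were at least 2-fold higher (50%, against 7.06% of all measured genes) and 1 was lower (against 3.78%), with a median log2 ratio of 0.93. Among the 8, Scara3, Colec12 and C1qtnf6 were under the floor in the control and entered only through the cystic array. The share of 50% and that of all genes are thus not like for like. The 3 chains of complement C1q, made mainly by macrophages, had 3.48 (C1qa), 1.06 (C1qb, with 2.85 at its second probe set) and 3.83 (C1qc). Emilin1, a glycoprotein of elastic fibres, went from 108.1 to 463.9 (2.10), and the scavenger receptor genes Scara3 and Colec12 were at least 2.47-fold and at least 2.31-fold higher. C1qtnf3, a secreted protein of the C1q/TNF family, was lower, from 334.3 to 92.9 (-1.85), while its relatives C1qtnf1 and C1qtnf6 were 2.19-fold and at least 2.97-fold higher. The fibroblast product Cthrc1 went from 41.7, under the floor, to 83.9 (at least 1.51-fold).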
